A study of Penicillium oxalicum with 12 samples.

Results

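The strains gCXC and gAraRC of the filamentous fungus Penicillium oxalicum were compared directly, using 6 of the 12 mRNA libraries of the series. gCXC expresses a chimeric transcription factor called CXC, and gAraRC expresses the regulator AraR with the substitution A731V. Each strain has 3 libraries, described by the submitters as biological replicates. The other 6 libraries are 3 of the wild type 114-2 (WT) and 3 of gXlnRC, which expresses the regulator XlnR with the substitution A871V. Mycelia of every strain had grown for 24 h with 2% glucose and had then spent 4 h in medium without a carbon source at 30 °C and 200 rpm, so all values describe carbon-starved cells. The labels do not say which factors CXC was joined from, which promoter drives any of the factors, or whether the native genes are intact. Nor do they say whether a strain stands for 1 transformant.

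Genes entered the comparison when their FPKM (fragments scaled to gene length and library total) was at least 1 in at least 3 of the 6 libraries. This kept 8915 of the 9979 genes in the table. Among the genes kept, 193 reached the minimum in exactly 3 libraries (median of their mean levels 1.19 FPKM), and 107 genes just outside reached it in 2 (0.863 FPKM). A total of 59 genes entered through gCXC alone and 83 through gAraRC alone, with every library of the other strain below the minimum, so their difference follows partly from the filter.

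XlnR and AraR belong to the zinc-cluster family of fungal transcription factors. In Aspergillus, XlnR activates genes for xylan-degrading enzymes and for the use of D-xylose, and AraR acts on genes for the release and use of L-arabinose. The deposited table identifies genes only by PDE locus tags, and the reference gene list available, made for a different isolate, held 0 of these tags. No gene below is therefore given a name or a function, the engineered factors could not be looked up in their own strains, and the lists of cellulase, xylanase, arabinose and amylase genes could not be counted.

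The 10 genes with the largest change in favour of gCXC had a median of their mean levels of 915 FPKM in gCXC and 13.1 FPKM in gAraRC. First among them, PDE_07124 stood at 9243, 8639 and 8486 FPKM in the gCXC libraries, and at 8.28, 9.26 and 10.99 FPKM in those of gAraRC. The rule that named the gene required a call and strains that do not overlap. Neither the gap between the libraries nor the p below is therefore separate support. By reads, the gene was 919-fold more abundant in gCXC (95% interval 849 to 995, which covers counting error only). Its log2 change was 9.72 ± 0.08 (SE, limma, Benjamini-Hochberg adjusted p = 9.93e-16), and 12 libraries entered the fit. WT, at 11.6 ± 0.334 FPKM (SD, n = 3), was close to gAraRC, although its libraries were all slightly above those of gAraRC.

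PDE_02681 was present in gCXC and at the limit of detection in gAraRC. Its levels in gCXC were 747, 706 and 668 FPKM, from 10157 to 13055 reads per library. In gAraRC, 1 library had 0.215 FPKM, from 3 reads, and 2 libraries had none. The ratio by reads was 10395, with a counting interval from 3557 to 50408, so its size is known only roughly. The log2 change on the log2(FPKM + 1) scale was 9.37 ± 0.15 (SE). The gene is one of the 59 that passed the filter through gCXC alone, so this change is given as a description, with no p. WT had 4 to 13 reads per library and gXlnRC 0 to 7, so no library outside gCXC had more than 13 reads of this transcript.

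In the other direction, PDE_04016 and PDE_04024 were near zero in gCXC and well expressed in gAraRC. PDE_04016 stood at 159, 253 and 247 FPKM in the gAraRC libraries, and at 0.259, 0.0858 and 0.0426 FPKM in gCXC, from 7, 2 and 1 reads. By reads this is a ratio of 1630 (counting interval 886 to 3400) and a log2 change of -7.58 ± 0.18 (SE). The gene is one of the 83 that passed the filter through gAraRC alone. PDE_04024 stood at 97.8, 134 and 139 FPKM in gAraRC and at 0.736, 1.02 and 0.621 FPKM in gCXC. Its ratio by reads was 157 (counting interval 117 to 216) and its log2 change -6.11 ± 0.17 (SE). It reached 1 FPKM in 1 gCXC library only, so it too would not have passed without gAraRC, and both changes are given as descriptions, with no p.

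Both of these genes had intermediate levels in gXlnRC. PDE_04016 had 51.8 ± 9.38 FPKM there and PDE_04024 had 26.1 ± 2.85 FPKM (SD, n = 3), above every WT and gCXC library and below every gAraRC library. WT had 0.805 ± 0.278 and 1.03 ± 0.484 FPKM. For PDE_04024 the WT and gCXC libraries overlapped, and for PDE_04016 all 3 WT libraries, at 0.495 to 1.03 FPKM, were above all 3 of gCXC.

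**Figure D1:**
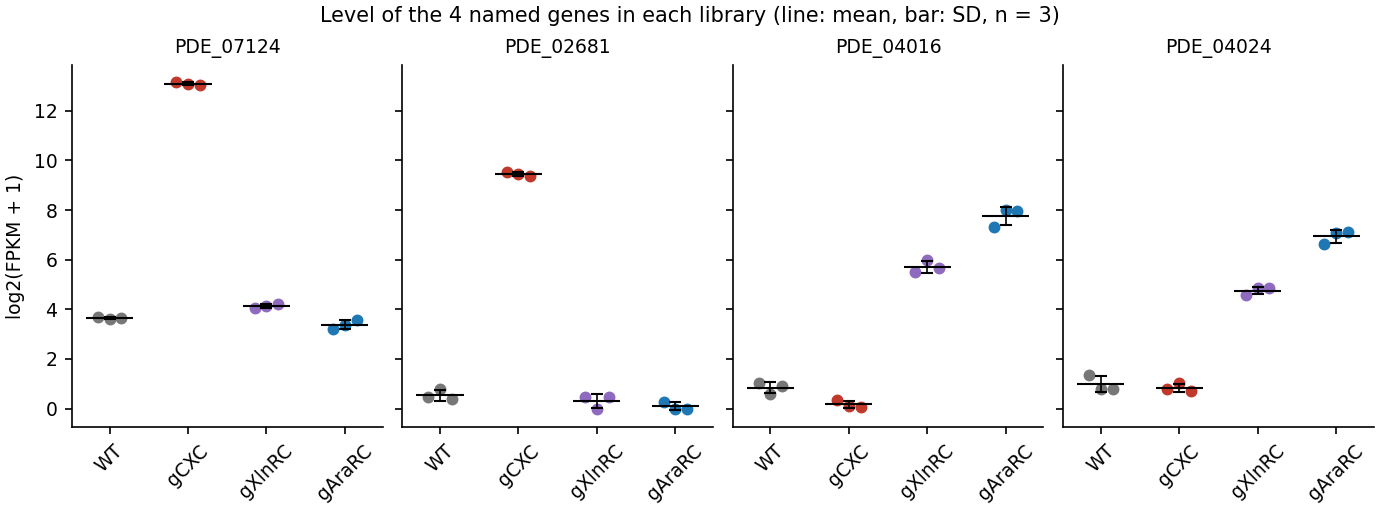
Level of the 4 named genes in each of the 12 libraries, as log2(FPKM + 1); points are libraries, lines are means and bars are SD (n = 3). PDE_07124 and PDE_02681 are high in gCXC alone, and PDE_04016 and PDE_04024 are highest in gAraRC, intermediate in gXlnRC and near zero in gCXC and WT.

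Seen over all tested genes, the strains differed widely. A total of 6818 genes, 76.5% of those tested, passed the test at an adjusted p below 0.05 (limma on log2(FPKM + 1), Benjamini-Hochberg over all tested genes). Of these, 4837 (54.3% of those tested) were higher in gCXC and 1981 (22.2%) were lower. In 78.4% of tested genes the 3 gCXC libraries did not overlap the 3 gAraRC libraries. Differences of at least 2-fold on the log2(FPKM + 1) scale were found in 1924 called genes (21.6%), with 1276 higher in gCXC (14.3%) and 648 lower (7.27%). At 4-fold there were 180 higher (2.02%) and 143 lower (1.60%), and at 8-fold the order was the other way round, with 28 higher (0.314%) and 57 lower (0.639%). The 57 became 90 with a pseudocount of 0.1, 37 with a pseudocount of 5 and 92 with limma voom on read numbers, while the 28 became 38, 24 and 39.

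**Figure D2:**
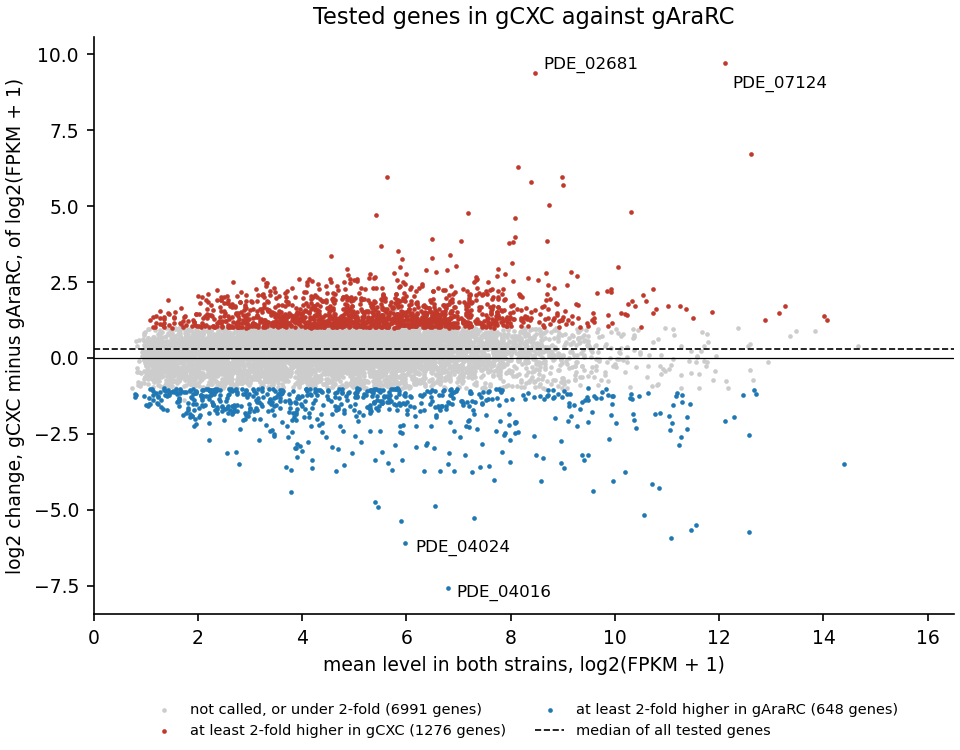
Log2 change (gCXC minus gAraRC) of each of the 8915 tested genes against its mean level in both strains, both on the log2(FPKM + 1) scale; the dashed line is the median of all tested genes. The bulk of genes is shifted above zero by 0.31, while genes far below zero extend to the highest levels.

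The direction of the smaller changes depends on how libraries are scaled. As deposited, the median log2 change of the tested genes was 0.31 in favour of gCXC. Median-of-ratios scaling, which brings the libraries' medians together, called 3156 genes as higher in gCXC and 3234 as lower, and the order at 2-fold was the reverse of that above, 700 against 1021. Quantile normalization put 3422 above and 2983 below gAraRC, of which 799 and 879 differed at least 2-fold. TPM, in which every library has the same sum, gave 4389 and 2265 (1080 and 728). All 648 genes that were at least 2-fold lower in gCXC kept that call under median-of-ratios scaling and under TPM, and 637 kept it under quantile normalization. Of the 1276 that were at least 2-fold higher, 700 kept it under median-of-ratios scaling. Median-of-ratios scaling and TPM divide gCXC by larger factors than gAraRC (for median of ratios, 1.06 to 1.08 against 0.850 to 0.856). Both therefore move log2 changes downward, so the kept lower calls and the lost higher calls follow largely from this shift.

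**Figure D3:**
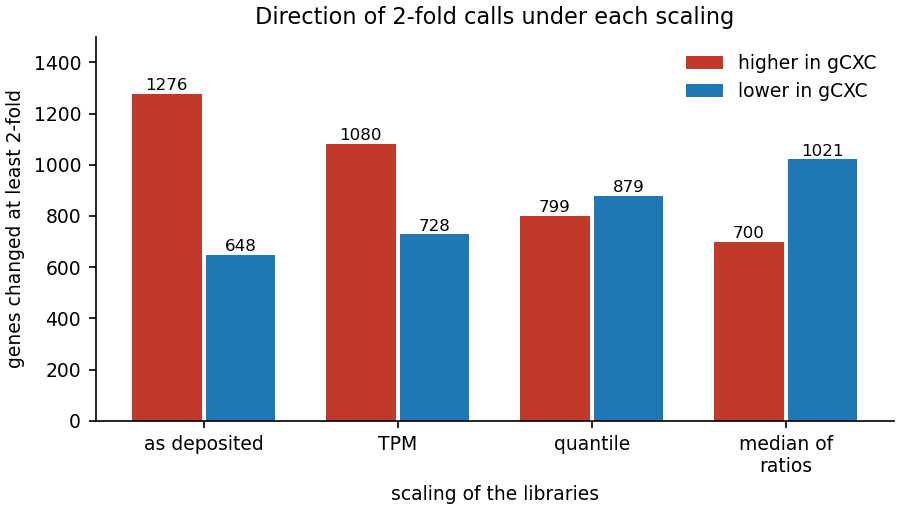
Number of genes changed at least 2-fold, higher (red) or lower (blue) in gCXC, under 4 scalings of the libraries. Higher genes lead as deposited (1276 against 648) and under TPM, and lower genes lead under quantile normalization and median-of-ratios scaling (1021 against 700).

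The gAraRC transcriptome was concentrated in fewer genes. In the gene ranking by reads, 50% of the reads counted in genes were held by the first 188 to 198 genes of the gAraRC libraries. That share took 398 to 411 genes in gCXC, 366 to 404 in WT and 320 to 337 in gXlnRC. The 100 most abundant genes held 40.4% to 41.4% of the reads in gAraRC, 30.9% to 31.3% in gCXC and 33.4% to 34.2% in gXlnRC. Ranked by mean FPKM instead of reads, the most abundant gene of gAraRC reached 28732, 43337 and 46439 FPKM there. It had 3714, 3466 and 3175 FPKM in gCXC and 16508 ± 863 FPKM in WT (SD, n = 3). In gXlnRC this gene had 1281 ± 188 FPKM, below every gCXC library. On the log2 scale its WT mean was nearer to gAraRC than to gCXC. The gene's log2 change between gCXC and gAraRC was -3.49 ± 0.16 (SE, limma). It was picked for its level in gAraRC, so this change is given as a description, with no p. The most abundant gene of gCXC, also by mean FPKM, did not pass the test (adjusted p = 0.401, limma). Its levels ran from 15658 to 45533 FPKM in gCXC and from 17792 to 27872 FPKM in gAraRC. They varied widely in WT too, at 33827 ± 19902 FPKM (SD, n = 3).

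The sets that differed at least 2-fold held large shares of the reads. The 648 genes lower in gCXC held 34.0% ± 1.26 of the reads in gAraRC and 8.14% ± 0.0523 in gCXC (SD, n = 3), and WT and gXlnRC lay between them at 12.8% ± 0.366 and 12.9% ± 0.593. The 1276 genes higher in gCXC held 29.7% ± 0.197 in gCXC and 8.78% ± 0.363 in gAraRC, with 23.4% ± 0.290 in WT and 23.6% ± 0.459 in gXlnRC. The sets were chosen on the gCXC and gAraRC libraries, so their contrast is a description. The WT and gXlnRC levels were not part of that contrast, and these libraries entered only the shared estimate of the spread. Sets chosen for a gap between 2 strains nevertheless favour a place between them for other strains, so the intermediate shares are descriptions too.

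**Figure D4:**
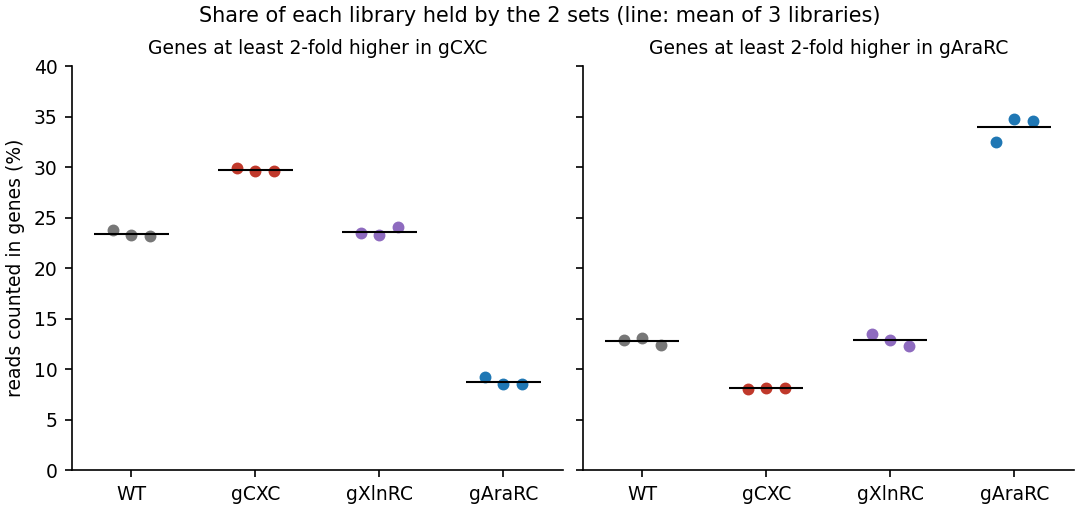
Share of the reads counted in genes that the genes at least 2-fold higher in gCXC (left) and at least 2-fold higher in gAraRC (right) hold in each library; points are libraries and lines are means of 3. WT and gXlnRC lie between the 2 strains in both panels, nearer to gCXC, and gAraRC replicate 1 is the lowest gAraRC library on the right at 32.5%.

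For most genes that differed, the wild type was nearer to gCXC, which was not particular to the 2-fold sets. Over all tested genes, Spearman correlations of WT libraries were 0.955 to 0.958 with gCXC and 0.905 to 0.916 with gAraRC. Among called genes under 2-fold, WT was nearer to gCXC in 2883 of 3561 higher and 734 of 1333 lower ones. On the log2(FPKM + 1) scale, the WT mean was nearer to gCXC than to gAraRC in 1124 of the 1276 genes at least 2-fold higher in gCXC and in 480 of the 648 lower ones. The median difference from WT in the higher set was 0.20 for gCXC and -1.21 for gAraRC. In the lower set it was -0.31 for gCXC and 1.246 for gAraRC. Both differences use the same WT libraries. gXlnRC was also nearer to gCXC in most genes, in 966 of the higher and 440 of the lower ones. With median-of-ratios scaling, WT was nearer to gCXC in 582 of 700 higher and 791 of 1021 lower genes.

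Among the genes with the widest gap in favour of gCXC this share was lower. Of the 28 genes at least 8-fold higher in gCXC, WT was nearer to gAraRC in 18 (in 19 of 38 with a pseudocount of 0.1 and in 20 of 39 with voom). The median difference from WT was 3.08 for gCXC and -1.18 for gAraRC. In the 10 with the largest change, WT was nearer to gAraRC in all 10. Their mean levels ran from 97.0 to 12450 FPKM in gCXC, from 0.0717 to 118 FPKM in gAraRC and from 0.460 to 72.2 FPKM in WT. gXlnRC was at least 2-fold above WT in 4 of these 10, but nearer to gAraRC than to gCXC in 8. Among the 57 genes at least 8-fold lower in gCXC, WT was nearer to gCXC in 42 and to gAraRC in 15 (to gAraRC in 24 of 90 with a pseudocount of 0.1 and in 27 of 92 with voom). With median-of-ratios scaling the corresponding numbers were 16 of 23 for WT nearer to gAraRC and 60 of 74 for WT nearer to gCXC. In the 10 genes with the largest change in favour of gAraRC, however, WT was nearer to gCXC in 5 and to gAraRC in 5. In 5 of these 10, gXlnRC was at least 2-fold above WT.

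**Figure D5:**
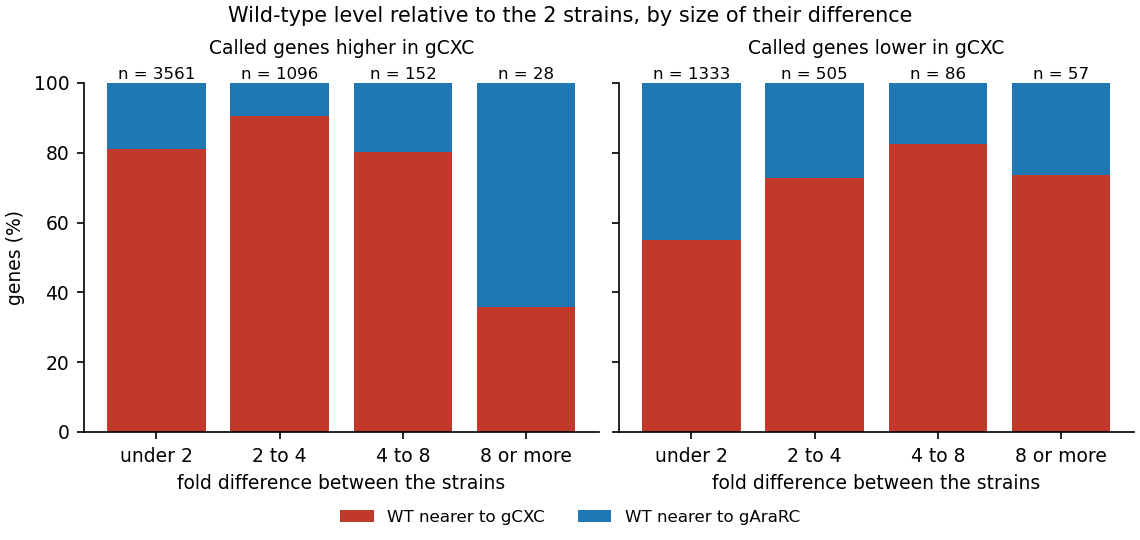
Share of called genes in which the WT mean was nearer to gCXC (red) or to gAraRC (blue) on the log2(FPKM + 1) scale, by the size and direction of the difference between the 2 strains. WT is nearer to gCXC in most genes of every class except the 28 genes at least 8-fold higher in gCXC, where it is nearer to gAraRC in 18.

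Genes with consecutive tag numbers were in the same 2-fold set more often than the share over all pairs, though in most cases they were not. The sources used here do not state whether tag numbers follow the order of genes on the chromosomes, so this describes numbers only. After a gene at least 2-fold lower in gCXC, the next tag number was also in that set in 29.1% of 587 cases, against 7.15% of all 8145 pairs of consecutive tested tags. For genes at least 2-fold higher in gCXC it was 24.1% of 1172 cases against 14.2%. The lower set had 11 runs of at least 4 consecutive tags, the longest with 7, and the higher set had 13, the longest with 6.

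Of the 10 genes with the largest change in favour of gAraRC, 8 fell into 2 groups of neighbouring tags. One group of 4 included PDE_04016 and PDE_04024 and spanned 15 tag numbers. Of the 10 other tested genes in that span, 7 were at least 2-fold lower in gCXC and 0 were higher, where 7.27% of all tested genes were lower. Its 4 genes had 83.6 to 219.6 FPKM in gAraRC, 16.3 to 51.8 in gXlnRC, at most 1.83 in gCXC and at most 1.58 in WT. The other group of 4 spanned 8 tag numbers, and 3 of the 4 other tested genes in it were at least 2-fold lower in gCXC. Among those 3 was the most abundant gene of gAraRC, described above. Both spans were set by genes picked for their large change, so these counts are descriptions. These 4 were abundant genes, with 4231 to 11883 FPKM in gAraRC, 868 to 3145 in WT, 308 to 1010 in gXlnRC and 67.2 to 221 in gCXC. The groups thus differed in WT: the first was near zero there and the second was between the 2 strains. On a log2 scale, both ends of the second group's WT range were nearer to those of gAraRC than to those of gCXC.

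Among the 10 genes with the largest change in favour of gCXC, the only neighbours were PDE_02681 and the gene with the adjacent tag number. Both had at least 10 FPKM in every gCXC library and less than 1 FPKM in every gAraRC and WT library. In the 8915 tested genes, these were the only 2 with at least 10 FPKM in all gCXC libraries and below 1 FPKM in all gAraRC libraries, and 2 genes, PDE_04016 among them, showed the reverse.

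The spread between replicates was larger in gAraRC. The median SD of log2(FPKM + 1) over tested genes was 0.08 in gCXC and 0.11 in gAraRC, and in the genes at least 2-fold lower in gCXC it was 0.12 and 0.20. gAraRC replicate 1 was the lowest gAraRC library in 9 of the 10 genes with the largest change in its favour, which together held 3.34% of its reads, against 6.033% and 5.999% in replicates 2 and 3. Without that library, 6736 genes were called, 1285 of them at least 2-fold higher in gCXC and 653 lower. The abundant group of 4 neighbouring tags had log2 changes from -5.50 to -5.92 with all libraries and from -5.81 to -6.22 without it (limma).

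The share of called genes varied with level. It was 63.3% of 2394 genes with a mean over both strains of 1 to 10 FPKM, 80.7% of 4875 genes at 10 to 100 FPKM and 85.5% of 145 genes above 1000 FPKM. Genes above 1000 FPKM also differed in direction: 39 were at least 2-fold lower in gCXC and 26 higher, while between 10 and 100 FPKM 257 were lower and 728 higher. By coding length, the median log2 change was 0.16 in the 1783 genes of at most 579 nt and 0.30 to 0.34 in the 4 longer classes of about the same size. The part of this difference in the direction of the calls was not tested.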

How the data were processed

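Per the labels' protocols, mRNA was captured and sequenced from stranded libraries. The authors deposited 1 table of FPKM values, with a column for each of 12 libraries. Among the tools in the submitters' processing notes are HISAT2 2.0.0 and featureCounts 1.5.0-p1, as well as CASAVA 1.8 and DESeq2; their roles are not stated. As the genome build, annotation, strand setting and FPKM denominator are unstated in these sources, overlapping genes or near-identical copies could share reads.

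A linear model with 1 mean per strain was fitted with limma 3.58.1 (R 4.3.3) on the log2(FPKM + 1) values of the 12 libraries together (8 residual degrees of freedom, trended variance), on genes with at least 1 FPKM in at least 3 of the 6 libraries compared. Genes were called at a two-sided, Benjamini-Hochberg adjusted p below 0.05. The FPKM values were not rescaled. Fold changes on this scale understate those of low genes. The median standard error was 0.09. In the 6 libraries, Spearman correlations across genes were 0.992 to 0.997 within a strain and 0.909 to 0.916 between strains.

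The FPKM values are whole multiples of the value of 1 read. From them were inferred the read numbers, the coding lengths (in multiples of 3 nt) and totals of 14549534 to 18561022 reads counted in genes per library (the 6 compared), with Python 3.11.15 (numpy 2.4.6). For 8914 of the tested genes all values lay within 0.1 of whole reads, and the recovered reads made up at least 99.97% of each total. Since the length was searched for, this agreement is partly built in. Ratios by reads carry an exact 95% binomial counting interval, without molecular identifiers and for counting error only.

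Named genes are the 2 in each direction with the largest log2 change among called genes whose strains do not overlap and whose mean is at least 10 FPKM in either strain; the rule takes the first 10 where tags can be paired with names. The rule, gene lists and comparisons were chosen with earlier results of these data known. The listed genes could not be identified and the planned counts over them were not made. limma and the recovery of reads were tested on simulated data. Alternatives were other pseudocounts, scalings and filters, a fit on 6 libraries, a replicate block, leaving out each library, and limma voom on recovered reads. Plots were drawn with matplotlib 3.10.9.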

Additional observations from a re-analysis of the deposited data

How the results depend on the processing

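In 15 alternatives, 233 of 255 values changed little (counts by under 1.5 times, medians by less than the spread of library medians, named genes with the same call), 22 moved and 0 reversed. Each value was labelled by itself, so this tally leaves out changes of order. At 2-fold, lower genes outnumbered higher ones under median-of-ratios scaling and quantile normalization. Median-of-ratios scaling also put the median just below zero, a change of sign that the tally counts as moved. The log2 changes of the 4 named genes kept their direction in all 60 values, which says little, since they were picked for large changes in these libraries and 3 of them passed the filter only with the strain where they are high. Their sizes ran from 9.25 to 9.85 for PDE_07124, 7.13 to 13.4 for PDE_02681, -10.7 to -5.42 for PDE_04016 and -7.25 to -4.45 for PDE_04024. A pseudocount of 5, which shrinks low genes by construction, left 402 genes at least 2-fold lower in gCXC and a median log2 change of 0.23. The 57 genes at least 8-fold lower in gCXC became 37 with this pseudocount, 90 with 0.1 and 92 with voom. Without a filter the median was 0.23. It was -0.0024 with median-of-ratios scaling, 0.22 with TPM, 0.0466 with quantile normalization and 0.33 with voom, which was chosen after the data were seen. Median-of-ratios scaling called 3156 genes as higher and 3234 as lower, with 700 and 1021 past 2-fold, and quantile normalization gave 2983 lower, with 799 at least 2-fold higher. At most 70 calls turned to the opposite call under any alternative. Leaving out 1 of the 6 libraries at a time gave 6511 to 6736 called genes and 1908 to 1954 changed at least 2-fold. A replicate block gave 6817 called genes. Libraries of the same number deviated together only weakly (correlations of 0.03, 0.05 and 0.04), although each correlated best with its own number, so the numbers were not taken as pairs. Counts over the planned gene lists were not run, as tags could not be paired with names. Genes with under about 10 reads in 1 strain have imprecise ratios.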

Other observations

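Outside the genes tested, 10 genes had a mean of at least 10 FPKM in WT (8 genes) or gXlnRC (2 genes). Their mean levels reached 23.0 FPKM in WT and 38.1 FPKM in gXlnRC, and at most 0.940 FPKM in gCXC and 1.47 FPKM in gAraRC.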
